A study of Mus musculus with 23 samples.

Results

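Of 16958 regions bound by the nuclear receptor NR5A2, 409 (2.41%) were classed as accessible by the authors and lay in gene deserts. A region was taken when it was autosomal, when the authors' deposited table classed it as bound and accessible, and when its midpoint was more than 100 kb from every protein-coding gene span in RefSeq (GRCm38.p6, the assembly of mm10). The 409 desert regions made up 5.15% of the 7938 accessible autosomal regions. The other 7529 were either inside a gene (3817) or outside but within 100 kb of one (3712).

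Mouse embryos at the 8-cell stage were profiled by ATAC-seq, an assay that uses a transposase to tag open chromatin for sequencing. The maternal-zygotic (mz) series held 13 knockout embryos, labelled mz_NrKO, and 8 heterozygous embryos, labelled mz_NrHet, each made into its own library directly after collection. The inducible series held 1 library of knockout embryos given 750 nM 4-hydroxytamoxifen for the first 24 h of culture (iNrKO_plus_Tam_NrKO) and 1 of embryos cultured without it (iNrKO_minus_Tam_Nrpp). Embryos of the inducible series were dissected 30 h after hCG, early in the 2-cell stage, and all of them spent 45 h in culture. The controls of the mz series carry an Nr5a2 mutation themselves, so they are not wild type, and the labels used here do not name the strain, the recombinase or its driver. Tamoxifen and loss of Nr5a2 cannot be told apart in the inducible series.

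NR5A2, a nuclear receptor of the orphan class, contacts DNA as a monomer, at an extended half-site that holds AAGG. It acts in early embryos, in liver and pancreas and in steroid-producing tissue. Gene deserts are long stretches without protein-coding genes. Many flank genes of developmental regulators, and distal enhancers within some of them act on promoters over long distances.

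No genome sequence was used here, so sequence could be shown only where a desert region overlapped a RefSeq promoter window (250 bases before to 50 after a gene's start). This was the case for 4 of the 409 regions, all at non-coding genes, and the 3 longest overlaps are shown because they are the only letters that can be set beside values of desert regions. Capitals mark the letters TCAAGG or AAGGTCA on either strand, which are parts of the NR5A2 motif and overlap in AAGG. The first stretch, at Gm32587, is chr14:18463360-18463480 on the plus strand and holds TCAAGG on the strand opposite to the one printed, as CCTTGA. The second, at Gm31583, is chr16:24090166-24090315 on the minus strand, and the third, at Gm35925, is chr13:7175964-7176000 on the minus strand.
Gm32587: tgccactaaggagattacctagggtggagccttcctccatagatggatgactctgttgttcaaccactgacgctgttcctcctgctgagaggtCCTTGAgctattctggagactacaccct
Gm31583: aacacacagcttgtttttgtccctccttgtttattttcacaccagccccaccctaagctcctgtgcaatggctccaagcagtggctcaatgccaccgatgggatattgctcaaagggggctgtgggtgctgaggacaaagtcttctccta
Gm35925: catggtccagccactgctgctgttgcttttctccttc

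Of 32851 RefSeq promoter windows of 300 bases, 14.4% held TCAAGG and 4.72% held AAGGTCA on either strand. In their first 121 bases, the length of the Gm32587 stretch, the shares were 6.48% and 2.10%. A match describes letters only. The match at Gm32587 had its centre 18.5 bp from the CUT&RUN summit, but the authors' summit recentred on the motif lay outside the stretch.

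The region at Gm32587 (chr14:18463277-18463480), between the ubiquitin-conjugating enzyme genes Ube2e1 and Ube2e2, had 4.66 RPKM in mz knockouts and 11.7 RPKM in heterozygotes. In the inducible series it had 3.06 RPKM in the treated pool and 7.18 RPKM in the untreated pool. It was called lower in the treated pool only (adjusted p = 0.0378, exact binomial test), not in the mz series (adjusted p = 0.185, exact binomial test). The region at Gm31583, in the desert between Bcl6 and Lpp, had 1.43 RPKM in mz knockouts and 4.11 RPKM in heterozygotes, and 1.70 RPKM in the treated and 4.57 RPKM in the untreated pool. The region at Gm35925, between Pfkp and Adarb2, went in different directions in the 2 series, with 3.23 RPKM in mz knockouts against 1.76 RPKM in heterozygotes, and 1.70 RPKM in the treated against 3.43 RPKM in the untreated pool. Neither of these last regions was called in either series.

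The table gives 1 merged RPKM value per group and region, so the spread between embryos is unknown for all values below. Every RPKM value was a whole multiple of the worth of 1 read, whatever the region's listed length, which let whole reads be recovered. One read was worth 0.359 RPKM in mz knockouts, 0.587 RPKM in heterozygotes, 0.170 RPKM in the treated pool and 0.163 RPKM in the untreated pool. The median desert region held 5 reads in both mz columns (exact 95% Poisson interval 1.62 to 11.7 reads), and 12 reads in the treated and 20 in the untreated pool. A value of 0, which was found for 16 desert regions in mz knockouts, 24 in heterozygotes, 1 in the treated pool and none in the untreated pool, allows up to 1.08, 1.76, 0.510 and 0.490 RPKM in these columns. Intervals and tests on reads compare merged libraries, not the conditions, and cover counting error only. No desert region lies inside Nr5a2, so the deletion cannot be checked on them.

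The desert regions were rare for the territory they lie in. The autosomes hold 680 Mb more than 100 kb from a protein-coding gene, 28% of their 2429 Mb between the outermost genes. Bound regions were sparse there, with 1.16 per Mb against 8.90 per Mb closer to genes, and accessible ones too, with 0.600 against 4.30 per Mb. The share of bound regions classed as accessible was 51.8% in deserts and 48.3% closer to genes.

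Of 1393 such gene-free stretches, 291 (20.9%) held an accessible bound region. Most of these, 214, held 1, and 25 held 3 or more, with 90 regions among them. Those 291 deserts spanned 801 kb between their flanking genes at the median, from 212 to 4542 kb. Distances to the nearest protein-coding gene had a median of 200 kb, with 162 regions beyond 250 kb and 27 beyond 1000 kb. Chromosome 13 held the most desert regions, 39, which were 10.9% of its accessible bound regions, and chromosome 19 the fewest, 3, or 1.24%.

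Protein-coding genes were far away, but non-coding ones often were not. A total of 65 desert regions lay inside a long non-coding RNA (lncRNA) span and 8 inside a span of another kind, and 74 were more than 100 kb from any gene of the table. Desert regions were listed with a median width of 305 bp, against 330 bp for accessible regions not in deserts. Their CUT&RUN signal, from an earlier study per the file header, had a median of 4.39 RPKM against 5.05 RPKM, and ranged from 0.402 to 16.6 RPKM. The CUT&RUN summit had been moved onto an NR5A2 motif in 332 desert regions (81.2%), against 87.9% of accessible regions elsewhere. The ATAC-seq and CUT&RUN summits lay 80 bp apart at the median in deserts and 105 bp apart elsewhere.

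The first question was how open the desert regions were in embryos that lack maternal and zygotic Nr5a2. Desert regions were less open in the mz knockout column than in heterozygotes, at 2.22 RPKM against 3.92 RPKM on average. Their summed RPKM was 0.568 of the heterozygous level (95% interval 0.538 to 0.600). Medians were 1.79 RPKM in mz knockouts and 2.94 RPKM in heterozygotes, and the highest values were 9.32 and 15.9 RPKM. The values of the columns overlapped widely.

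In the inducible series, the desert regions averaged 2.24 RPKM in the treated pool and 3.47 RPKM in the untreated pool. Their ratio of summed RPKM was 0.647 (95% interval 0.625 to 0.669). Medians were 2.04 RPKM in the treated and 3.26 RPKM in the untreated pool, with highest values of 7.32 and 10.1 RPKM. The heterozygote column had the widest spread of the 4, and it is also the column with the fewest reads per RPKM.

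**Figure D1:**
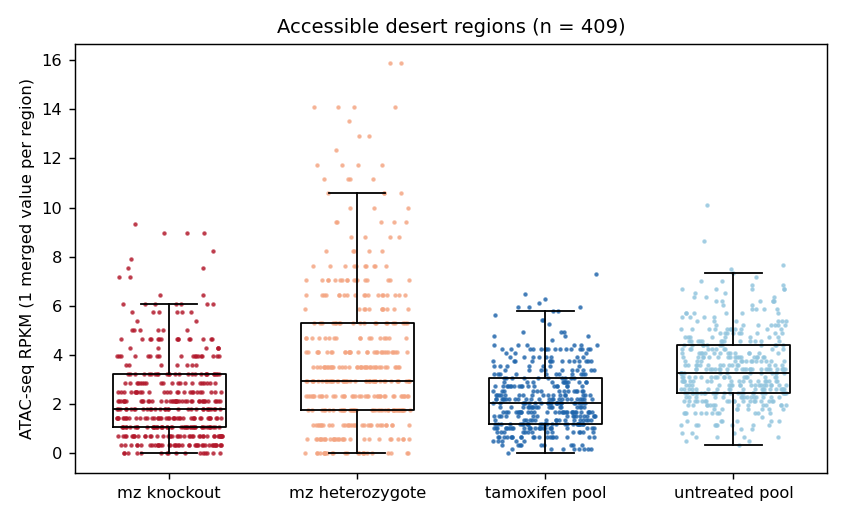
ATAC-seq RPKM of the 409 accessible desert regions in the 4 merged columns; each point is 1 region, boxes give the quartiles and whiskers reach the last value within 1.5 box lengths. The box of the mz knockouts lies lower than that of the heterozygotes, with medians of 1.79 and 2.94 RPKM, and that of the tamoxifen-treated pool lower than that of the untreated pool, with medians of 2.04 and 3.26 RPKM.

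Counted region by region, 303 desert regions (74.1%) were lower in RPKM in mz knockouts than in heterozygotes, against 64.3% of all regions of the table and 74.6% of accessible regions elsewhere. In the treated pool 339 (82.9%) were below the untreated pool, against 74.4% of all regions and 81.0% of accessible regions elsewhere. The count of regions below control in deserts was thus close to that of accessible regions elsewhere in both series. Both series had lower values at 261 desert regions (63.8%), against 62.3% of accessible autosomal regions, and both had higher values at 28. The median log2 ratio, on the log2(RPKM + 1) scale that understates the change of low regions, was −0.57 in mz knockouts, against −0.48 for accessible regions elsewhere and −0.32 over all regions. In the treated pool it was −0.46, −0.41 and −0.35 for the same sets.

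With deserts measured from protein-coding genes, the sums differed between desert regions and accessible regions elsewhere in both series. In mz knockouts the ratio of summed RPKM was 0.568 in deserts and 0.656 elsewhere (95% interval 0.649 to 0.663), and the ratio between them was 0.865 (95% counting interval 0.819 to 0.914). In the inducible series it was 0.647 in deserts and 0.698 elsewhere (0.693 to 0.703), and the ratio between them was 0.927 (0.895 to 0.959). Regions inside genes had ratios of 0.648 in mz knockouts and 0.687 in the treated pool. Against them the desert regions stood at 0.877 (0.829 to 0.927) and 0.942 (0.909 to 0.976). A common scaling of a column leaves these ratios between region sets as they are. The contrast was not resolved under another choice of genes, in an alternative chosen after seeing the data. For the 74 regions more than 100 kb from any gene of the table, non-coding ones included, the ratio was 0.648 in mz knockouts against 0.653 elsewhere, or 0.993 of it (95% counting interval 0.867 to 1.14). In the treated pool it was 0.717 against 0.696, or 1.03 (0.953 to 1.12), so no difference was resolved for these regions in either series. These intervals overlap those of the main definition, so a dependence on the choice of genes was not shown either. With a limit of 200 kb from protein-coding genes, the contrast was 0.853 (0.787 to 0.924) in mz knockouts and 0.963 (0.917 to 1.01) in the treated pool.

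Ratios also varied with distance within 100 kb, and were highest next to genes. Accessible regions within 1 kb of a gene had ratios of 0.772 in mz knockouts and 0.839 in the treated pool. At 10 to 100 kb the ratios were 0.623 (95% interval 0.610 to 0.637) and 0.674 (0.663 to 0.684). Desert regions stood at 0.911 of these (95% counting interval 0.860 to 0.966) in mz knockouts and at 0.960 (0.925 to 0.997) in the treated pool.

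Within deserts no further fall with distance was resolved. Ratios in mz knockouts were 0.568 at 100 to 250 kb (247 regions), 0.602 at 250 to 500 kb (84), 0.527 at 500 to 1000 kb (51) and 0.533 beyond that (27). In the treated pool they were 0.628, 0.704, 0.621 and 0.698 in the same classes. Regions beyond 250 kb stood at 0.997 of those at 100 to 250 kb (95% counting interval 0.891 to 1.12) in mz knockouts and at 1.08 (1.004 to 1.15) in the treated pool. The latter interval lies just above 1, so the loss in the treated pool was slightly smaller beyond 250 kb, with no steady trend over the classes.

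**Figure D2:**
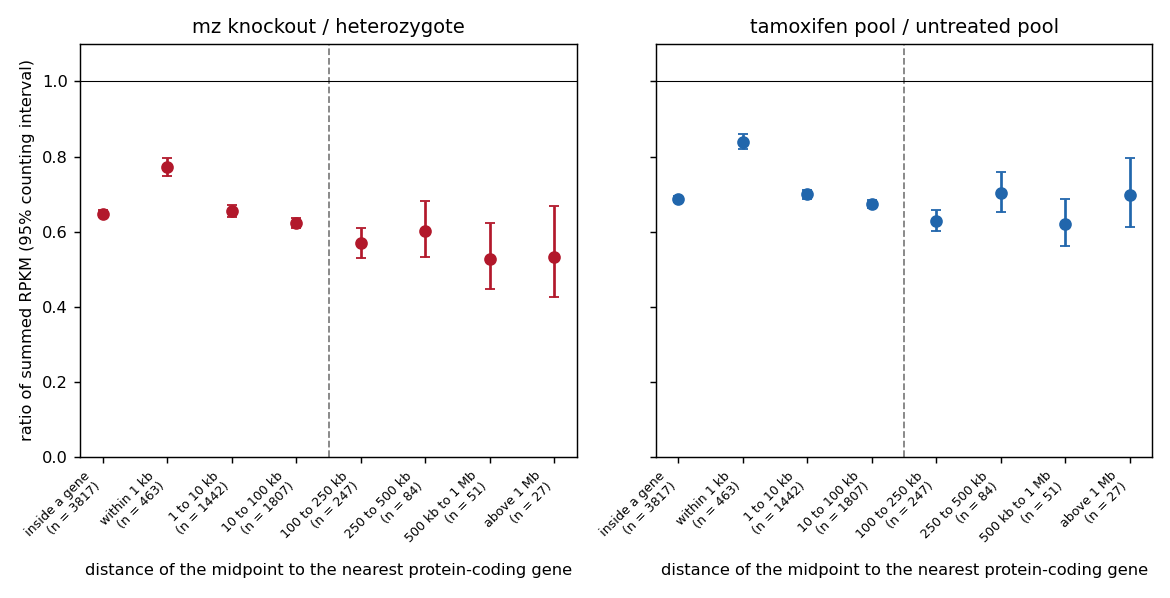
Ratio of summed RPKM, knockout over control, for accessible autosomal regions by distance from the midpoint to the nearest protein-coding gene, with 95% counting intervals and the number of regions; left mz series, right inducible series; the dashed line marks 100 kb. Regions within 1 kb of a gene have the highest ratios, 0.772 and 0.839, and the 4 desert classes lie between 0.527 and 0.602 in mz knockouts and between 0.621 and 0.704 in the treated pool.

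Desert regions were less open than other accessible regions already in the controls, at 3.92 RPKM against 5.67 RPKM in heterozygotes and 3.47 RPKM against 4.02 RPKM in the untreated pool. Regions were therefore also compared within classes of level, with the level taken from the control of the other series. In mz knockouts the desert regions stood at 0.924 of other accessible regions in the lowest level class (95% counting interval 0.817 to 1.05), at 0.880 in the middle one (0.796 to 0.972) and at 0.839 in the highest (0.775 to 0.907). In the treated pool they stood at 0.973 (0.913 to 1.04), 0.971 (0.908 to 1.04) and 0.904 (0.858 to 0.953). The interval stayed below 1 in the middle and highest classes of the mz series and in the highest class of the inducible series. The highest class has no upper bound, and levels in it were not alike. Desert regions there averaged 5.23 RPKM in the untreated pool, against 5.81 RPKM elsewhere, when split by that pool. Split by heterozygotes, they averaged 7.49 RPKM in heterozygotes, against 8.95 RPKM elsewhere. In the middle class of the untreated split the means were alike, at 3.33 and 3.34 RPKM.

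**Figure D3:**
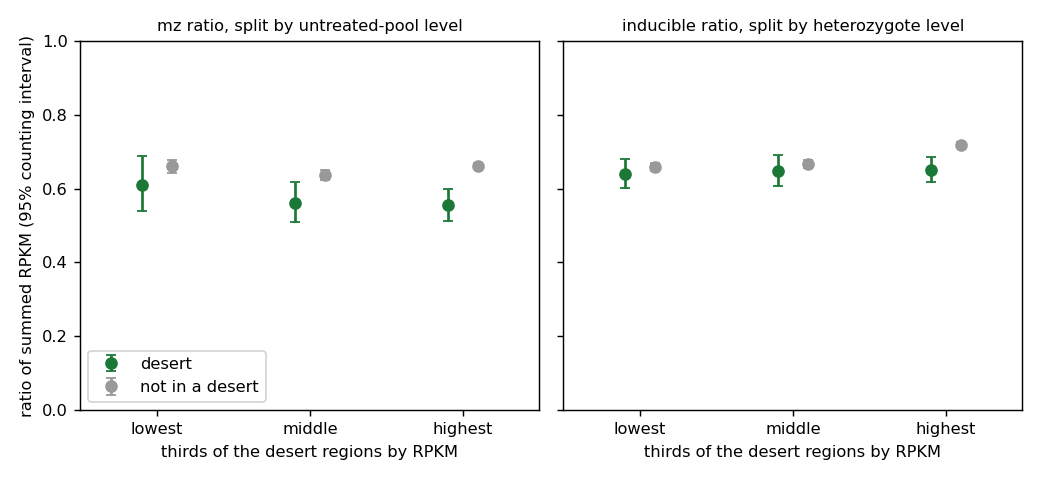
Ratio of summed RPKM, knockout over control, for desert regions (green) and other accessible autosomal regions (grey) within level classes, lowest to highest, which hold 141, 137 and 131 desert regions on the left and 163, 113 and 133 on the right, with 95% counting intervals. In mz knockouts (left) the desert regions have ratios of 0.611, 0.561 and 0.555 against 0.660, 0.638 and 0.662, and in the treated pool (right) 0.641, 0.648 and 0.650 against 0.658, 0.668 and 0.719.

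The 381 bound desert regions that the authors class as not accessible give the nearest contrast, since they share the position rule. They were low in every column, with means of 0.495 RPKM in mz knockouts and 0.609 RPKM in heterozygotes. Their ratios were 0.813 (95% interval 0.712 to 0.929) in mz knockouts and 0.698 (0.653 to 0.747) in the treated pool. Accessible desert regions stood at 0.698 of that ratio in mz knockouts (95% counting interval 0.606 to 0.804) and at 0.926 in the treated pool (0.859 to 0.998). The accessible class rests on the authors' calls, and the columns behind it were not given in the sources used here. Selection on a control column would by itself lower the ratio of the accessible set. These contrasts are therefore descriptions and do not show a difference in response.

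Binding strength separated the desert regions weakly. Those above the median CUT&RUN signal stood at 0.883 of the ratio of those below it in mz knockouts (95% counting interval 0.791 to 0.986) and at 0.935 (0.874 to 1.00) in the treated pool. Regions whose summit had been moved onto a motif stood at 1.02 of the others (0.895 to 1.17) in mz knockouts and at 0.921 (0.846 to 1.00) in the treated pool. Desert regions inside an lncRNA had a ratio of 0.487 in mz knockouts (95% interval 0.422 to 0.561), and the 336 inside no gene had 0.587 (0.553 to 0.624). The ratio between these groups was 0.829 (95% counting interval 0.712 to 0.966) in mz knockouts and 0.908 (0.824 to 1.00) in the treated pool.

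Single desert regions were then tested on their recovered reads by an exact binomial test, 2-sided, and called at an adjusted p of 0.05 (Benjamini-Hochberg over the whole table of 16958 regions). In mz knockouts 11 desert regions were called lower, 2.69% of them, against a background of 1.73% of all regions and 3.12% of accessible autosomal regions. None was called higher, where the background was 0.0236% of all regions and 0.0504% of accessible autosomal ones. At an unadjusted p under 0.05, 74 were lower and 2 higher, exact binomial tests. The share of other regions at that threshold was not counted, so this split is not shown to be particular to deserts. In the treated pool 53 desert regions (13%) were called lower, against 6.37% of all regions and 10.2% of accessible autosomal regions. One was called higher, against a background of 0.0767% of all regions and 0.0882% of accessible autosomal ones. The shares called were near those of accessible autosomal regions, and only 275 desert regions (67.2%) held enough reads to be called at all in the mz series, against 405 (99.0%) in the inducible series.

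Calls depended on the scaling of the columns. The median log2 ratio over all regions was −0.32 in mz knockouts and −0.35 in the treated pool, and calls relative to it were 1 desert region lower in mz knockouts and 18 in the treated pool. With the summed RPKM of all regions set equal, 0 desert regions were called lower in mz knockouts by the exact binomial test and 5 in the treated pool. The gain in the treated pool was called under both. All called regions below are given on the deposited scale.

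In all, 6 desert regions (background 0.413% of all regions and 0.781% of accessible autosomal ones) were called lower in both series. At these read numbers only large drops can be called, so the large loss at all 6 follows from how they were picked. The one with the smallest adjusted p in the mz series, chr4:87473189-87473475, lay 243 kb from Slc24a2, a cation exchanger gene, in the desert that ends at Mllt3, which encodes a reader of acylated histones. It had 2.51 RPKM in mz knockouts and 14.1 RPKM in heterozygotes, and 1.53 RPKM in the treated and 6.69 RPKM in the untreated pool. The adjusted p was 0.00358 in the mz series and 0.00107 in the inducible series, exact binomial tests. Under the median scaling it was the 1 desert region that kept its call in mz knockouts (adjusted p = 0.0493, exact binomial test).

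The next was chr7:145076229-145076461, 137 kb from Ccnd1, the gene of the cell cycle regulator cyclin D1, and 105 kb from Tpcn2, which encodes an endolysosomal cation channel. It had 2.51 RPKM in mz knockouts and 12.9 RPKM in heterozygotes (adjusted p = 0.0119, exact binomial test). The treated pool had 0.510 RPKM there and the untreated pool 5.22 RPKM (adjusted p = 0.000239, exact binomial test). This region kept its call in the treated pool under both scalings.

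A region 538 kb from Zfhx4, a zinc finger homeobox transcription factor gene, lay in the desert that starts at the nuclear receptor gene Hnf4g (chr3:4680320-4680561). It had 0.717 RPKM in mz knockouts and 7.64 RPKM in heterozygotes, which is 2 reads against 13 (adjusted p = 0.0203, exact binomial test). In the pools it had 0.681 RPKM with and 5.39 RPKM without tamoxifen (adjusted p = 0.000453, exact binomial test). Like the region between Ccnd1 and Tpcn2, it kept its call in the treated pool under both scalings.

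On the same chromosome, a region 1107 kb from Rapgef2, which encodes an exchange factor for Rap GTPases, had no read in mz knockouts and 5.29 RPKM in heterozygotes (chr3:77955733-77956194; adjusted p = 0.0205, exact binomial test). It was nearly empty in the treated pool as well, with 0.340 RPKM, against 3.75 RPKM in the untreated pool (adjusted p = 0.00235, exact binomial test). The other flanking gene is Fstl5, a follistatin-like gene. The heterozygous value rests on 9 reads.

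The last members called in both series were near Dach1 and Tafa5. Dach1 encodes a transcriptional co-regulator of organ development, and the region 407 kb from it (chr14:97379362-97379763) had 1.08 RPKM in mz knockouts and 7.64 RPKM in heterozygotes, and 0.681 RPKM in the treated and 3.43 RPKM in the untreated pool. Its adjusted p was 0.0370 in mz knockouts and 0.0239 in the treated pool, exact binomial tests. Tafa5 encodes a secreted protein, and the region 137 kb from it (chr15:87895954-87896348) had 2.15 RPKM in mz knockouts and 9.99 RPKM in heterozygotes, and 1.87 RPKM in the treated and 5.39 RPKM in the untreated pool. Its adjusted p was 0.0475 and 0.0305 in these series, exact binomial tests.

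**Figure D4:**
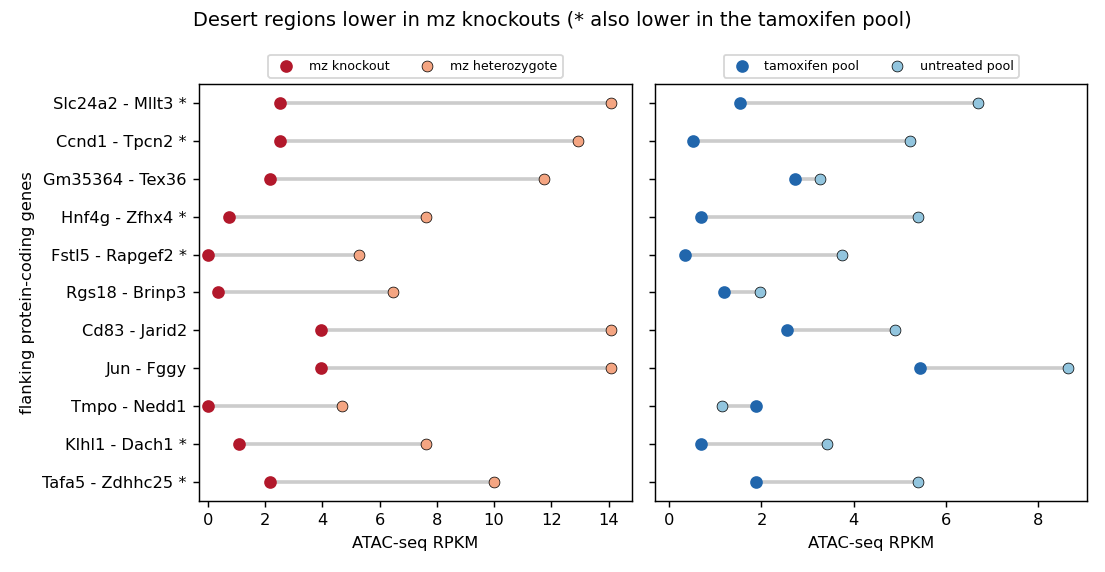
ATAC-seq RPKM of the 11 desert regions called lower in mz knockouts, named by their flanking protein-coding genes, in mz knockouts and heterozygotes (left) and in the treated and untreated pools (right); an asterisk marks the 6 also called lower in the treated pool. The knockout point lies left of its control in every row but that between Tmpo and Nedd1 in the right panel, where the treated pool has 1.87 RPKM and the untreated pool 1.14 RPKM.

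A further 5 desert regions were called lower in mz knockouts alone. One was 130 kb from Jarid2, which encodes a partner of the Polycomb repressive complex (chr13:44601039-44601316), with 3.95 RPKM in mz knockouts and 14.1 RPKM in heterozygotes, and 2.55 RPKM in the treated and 4.90 RPKM in the untreated pool. Another, inside the lncRNA Junos and 105 kb from the transcription factor gene Jun (chr4:95157016-95157251), had the same 3.95 and 14.1 RPKM in the mz series, and 5.45 RPKM in the treated and 8.65 RPKM in the untreated pool. Both had an adjusted p of 0.0314 in the mz series, exact binomial tests. These 2 were among the 8 most open desert regions in the controls.

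The remaining ones lay between Gm35364 and Tex36, between Rgs18 and Brinp3 and between Tmpo and Nedd1. The region near Gm35364 (chr7:133229049-133229221) had 2.15 RPKM in mz knockouts and 11.7 RPKM in heterozygotes, but 2.72 RPKM in the treated and 3.26 RPKM in the untreated pool. That between Rgs18, a regulator of G-protein signalling, and Brinp3 (chr1:145557570-145557835) had 0.359 RPKM in mz knockouts and 6.46 RPKM in heterozygotes, and 1.19 RPKM in the treated and 1.96 RPKM in the untreated pool. The region near Tmpo, the gene of a nuclear lamina protein (chr10:91377791-91378104), had no read in mz knockouts and 4.70 RPKM in heterozygotes, while the treated pool, at 1.87 RPKM, was above the untreated pool, at 1.14 RPKM. A call in the mz series alone is not shown to differ between the series: 0 desert regions passed an exact noncentral hypergeometric test of the difference between the 2 ratios after adjustment, and 24 (5.87%) had an unadjusted p under 0.05, near the 6.03% of accessible regions elsewhere.

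Among the 53 desert regions called lower in the treated pool, the smallest adjusted p belonged to chr3:82688586-82688991, between the neuropeptide receptor gene Npy2r and Rbm46, which encodes a germ cell RNA-binding protein. It had 0.340 RPKM in the treated and 5.55 RPKM in the untreated pool (adjusted p = 5.83e-05, exact binomial test), and 0.359 RPKM in mz knockouts against 1.17 RPKM in heterozygotes. The mz values there rest on 1 and 2 reads. The region 135 kb from Gas1, which encodes a hedgehog co-receptor, had 0.170 RPKM in the treated pool, against 3.43 RPKM in the untreated pool. The regions near Npy2r and Gas1 kept their calls in the treated pool under both scalings.

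Further regions of this group, those named next, had between 0.340 and 2.38 RPKM in the treated pool. The region 123 kb from Aco1, the gene of cytosolic aconitase, had 0.681 RPKM in the treated and 4.90 RPKM in the untreated pool. That 388 kb from Bpnt2, a Golgi nucleotidase gene, had 1.19 RPKM in the treated and 5.88 RPKM in the untreated pool. That 133 kb from the ribosomal protein gene Rpl38 had 0.340 RPKM in the treated and 3.92 RPKM in the untreated pool, and one of the stronger CUT&RUN signals, 12.8 RPKM. The region between the junction scaffold gene Magi1 and the mitochondrial carrier gene Slc25a26 (chr6:94390520-94390729) had 2.38 RPKM in the treated and 7.67 RPKM in the untreated pool (adjusted p = 0.00400, exact binomial test), and 7.89 RPKM in mz knockouts against 15.9 RPKM in heterozygotes.

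The 1 desert region called higher was chr3:125103588-125103904, 300 kb from Ndst4, which encodes a heparan sulfate sulfotransferase. It had 3.40 RPKM in the treated and 0.653 RPKM in the untreated pool (adjusted p = 0.0215, exact binomial test). In the mz series it had 1.43 RPKM in knockouts and 1.76 RPKM in heterozygotes, 4 and 3 reads. The untreated value also rests on 4 reads.

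Not all of the most open desert regions were called. Those among the 8 most open included regions between Nudt4 and Eea1 (chr10:95719634-95720052) and between Mn1 and Cryba4 (chr5:112031995-112032450). The region near Nudt4, a diphosphoinositol polyphosphate phosphohydrolase gene, had 5.74 RPKM in mz knockouts and 15.9 RPKM in heterozygotes, and 2.21 RPKM in the treated and 5.39 RPKM in the untreated pool. The region between Mn1, a transcriptional co-regulator gene, and Cryba4 had 9.32 RPKM in mz knockouts and 13.5 RPKM in heterozygotes, and 7.32 RPKM in the treated and 10.1 RPKM in the untreated pool. It is the most open desert region in both knockout columns and in the untreated pool, and neither it nor the region near Nudt4 was called in either series.

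Deserts that held several regions gave sums with more reads behind them. The desert between Cd83, an immunoglobulin superfamily gene, and Jarid2 spans 928 kb and held 7 accessible bound regions, the most of any, along with 6 bound regions classed as not accessible. Its accessible regions averaged 4.00 RPKM in mz knockouts and 7.72 RPKM in heterozygotes, a ratio of 0.518 (95% interval 0.378 to 0.708). In the inducible series they averaged 2.70 RPKM in the treated and 4.15 RPKM in the untreated pool, a ratio of 0.650 (0.508 to 0.829). All 7 were below control in both series.

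Signal in that desert was highest near its ends. The region 105 kb from Cd83 (chr13:43908328-43908589) had 7.17 RPKM in mz knockouts and 12.9 RPKM in heterozygotes, and 5.79 RPKM in the treated and 6.37 RPKM in the untreated pool. At the other end, 3 regions lay within 109 to 130 kb of Jarid2, inside the lncRNA Gm40931. The middle of these (chr13:44615883-44616126) had 6.10 RPKM in mz knockouts and 11.7 RPKM in heterozygotes, and 4.08 RPKM in the treated and 7.34 RPKM in the untreated pool.

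The desert between Mn1 and Cryba4, a lens crystallin gene, spans 789 kb and held 6 regions. Their ratio was 0.575 (95% interval 0.419 to 0.788) in mz knockouts and 0.803 (0.650 to 0.991) in the treated pool, and 5 of 6 were below control in each series. Of the 3 desert regions with the strongest CUT&RUN signal, 2 lay there. The strongest, chr5:112072571-112072733 with 16.6 RPKM of CUT&RUN, showed no loss of ATAC-seq signal, with 3.23 RPKM in mz knockouts and 2.94 RPKM in heterozygotes, and 3.23 RPKM in the treated and 3.26 RPKM in the untreated pool. The other, chr5:111879129-111879328 with 14.8 RPKM of CUT&RUN, had 3.23 RPKM in mz knockouts and 9.99 RPKM in heterozygotes, and 4.76 RPKM in the treated and 6.20 RPKM in the untreated pool.

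The remaining one of the strongest 3 lay 245 kb from Foxp1, a forkhead transcription factor gene (chr6:98680016-98680186), with a CUT&RUN signal of 16.5 RPKM. It had 2.51 RPKM in mz knockouts and 5.29 RPKM in heterozygotes, and 3.74 RPKM in the treated and 5.06 RPKM in the untreated pool. None of these 3 strongly bound regions was called.

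The desert between Ccnd1 and Tpcn2 is short, at 242 kb, and its 3 regions form a run with gaps under 10 kb. They averaged 2.03 RPKM in mz knockouts and 7.64 RPKM in heterozygotes, a ratio of 0.266 (95% interval 0.141 to 0.482). In the inducible series they averaged 1.70 RPKM in the treated and 3.43 RPKM in the untreated pool, a ratio of 0.496 (0.310 to 0.778). The loss in the treated pool came from the region called in both series. Its neighbours chr7:145062800-145063051 and chr7:145069081-145069495 had 2.38 and 2.21 RPKM in the treated pool, against 2.29 and 2.77 RPKM in the untreated pool.

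**Figure D5:**
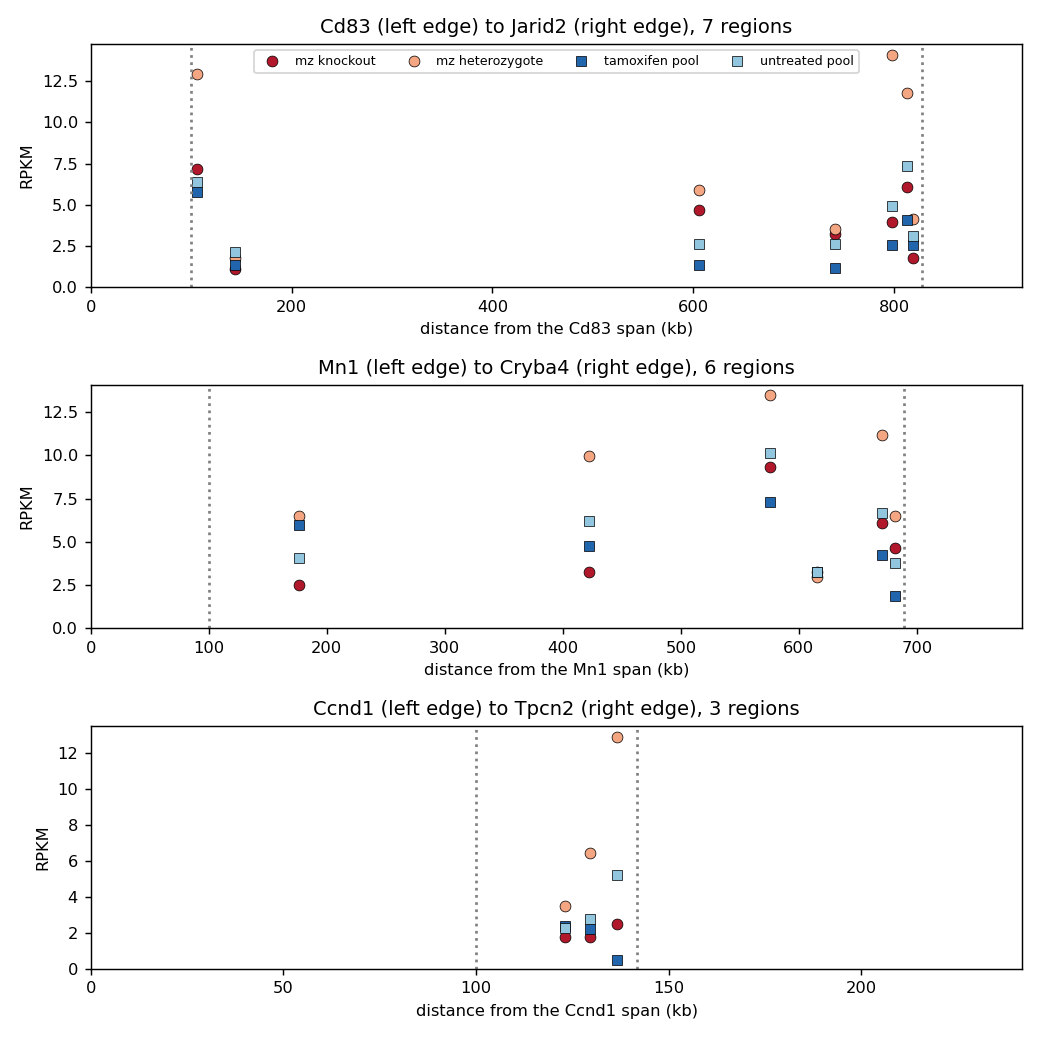
ATAC-seq RPKM of the accessible bound regions in 3 deserts by distance from the left flanking gene, in the 4 merged columns; the right edge of each panel is the right flanking gene and dotted lines mark 100 kb from either gene. All 7 regions between Cd83 and Jarid2 have lower values in mz knockouts than in heterozygotes, as have all 3 between Ccnd1 and Tpcn2 and 5 of 6 between Mn1 and Cryba4.

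Of the 8 deserts with at least 4 regions, 7 had a ratio below 1 in mz knockouts and 7 in the treated pool. That between Nudt4 and Eea1, an early endosome tether gene, held 5 regions, with 0.369 (95% interval 0.218 to 0.615) in mz knockouts and 0.576 (0.404 to 0.813) in the treated pool. That between Akr1d1, a steroid reductase gene, and Trim24 held 4, with 0.809 (0.517 to 1.27) in mz knockouts and 1.05 (0.774 to 1.44) in the treated pool. Between the cadherin gene Cdh2 and Dsc3, 4 regions had a ratio of 1.32 (0.469 to 4.24) in mz knockouts, where they averaged 1.17 RPKM against 0.881 RPKM in heterozygotes, and of 0.579 (0.383 to 0.864) in the treated pool. The mz interval there includes 1.

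Desert regions also stood close together at a smaller scale, with 32 of them in 15 runs with gaps of at most 10 kb. A run of 3 between Trpa1, which encodes an irritant-sensing ion channel, and Kcnb2, a potassium channel gene, averaged 1.79 RPKM in mz knockouts and 3.52 RPKM in heterozygotes, a ratio of 0.509 (95% interval 0.239 to 1.07), and 1.99 RPKM in the treated and 3.97 RPKM in the untreated pool, a ratio of 0.50 (0.324 to 0.758). A pair lay inside the span of 3110053B16Rik, a non-coding gene of another kind than lncRNA, about 200 kb from Asap2. The first (chr12:20909668-20910229) had 1.08 RPKM in mz knockouts and 5.29 RPKM in heterozygotes, and the second (chr12:20914652-20915015) had 7.53 RPKM in mz knockouts and 8.81 RPKM in heterozygotes. Their mz ratios had overlapping intervals (0.0354 to 0.815 and 0.420 to 1.78). With tamoxifen the first had 1.02 RPKM, against 4.08 RPKM without, and was called lower (adjusted p = 0.0239, exact binomial test). The second had 3.40 RPKM with and 6.37 RPKM without tamoxifen and was not called.

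The 5 farthest desert regions lay more than 1000 kb from any protein-coding gene. The region 1990 kb from Pcdh9 (chr14:91023168-91023441) had 1.08 RPKM in mz knockouts and 0.587 RPKM in heterozygotes, and 1.36 RPKM in the treated and 2.77 RPKM in the untreated pool. That 1709 kb from Cdh9 (chr15:15019051-15019660) had 2.51 RPKM in mz knockouts and 7.05 RPKM in heterozygotes, and 1.53 RPKM in the treated and 4.24 RPKM in the untreated pool. Those near Olfm4, at 1698 kb, and Efnb2, the gene of an ephrin ligand, at 1538 kb, had 2.15 and 3.95 RPKM in mz knockouts against 4.11 and 6.46 RPKM in heterozygotes. In the pools the region near Olfm4 had 3.57 RPKM with and 2.77 RPKM without tamoxifen, and that near Efnb2 3.74 RPKM with and 7.02 RPKM without. The last, 1474 kb from Dsc3, a desmosomal cadherin gene, had 2.15 RPKM in mz knockouts and 1.76 RPKM in heterozygotes, and 4.25 RPKM in the treated and 2.12 RPKM in the untreated pool. None of the 5 farthest regions was called.

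Flanking genes were grouped by lists of developmental transcription factors, signalling genes, adhesion and neuronal membrane genes and early embryo genes. The share of all protein-coding genes that flank such a desert was not computed. Counts of flanking genes per list therefore show neither enrichment nor depletion. Of 142 developmental transcription factor genes, 26 flanked a desert with an accessible bound region, 34 regions in all. These had a ratio of 0.527 (95% interval 0.439 to 0.634) in mz knockouts and 0.627 (0.558 to 0.704) in the treated pool, beside 0.568 and 0.647 for all desert regions. Of the 34, 2 (5.88%) were called lower in mz knockouts and 3 (8.82%) in the treated pool, beside 2.69% and 13% of all desert regions, and none was called higher. The called ones were those near Zfhx4 and Dach1 in both series and, in the treated pool, a region between Bcl11a, a zinc finger transcription factor gene, and Fancl, with 0.681 RPKM in the treated and 4.57 RPKM in the untreated pool.

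The most open regions of this list lay in deserts flanked by Tfap2a and Nr2f1, and each was nearer to the other flanking gene. Tfap2a encodes an AP-2 family factor, and the region 263 kb from it (chr13:40451038-40451210) had 5.02 RPKM in mz knockouts and 11.2 RPKM in heterozygotes, and 4.25 RPKM in the treated and 5.39 RPKM in the untreated pool. Nr2f1 encodes an orphan nuclear receptor. A region in the desert between it and Arrdc3 (chr13:79668973-79669160) lay 1470 kb from Nr2f1 and 1214 kb from Arrdc3. That region had 5.74 RPKM in mz knockouts and 9.40 RPKM in heterozygotes, and 5.28 RPKM in the treated and 5.88 RPKM in the untreated pool. Neither was called.

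Of 78 signalling genes, 16 flanked 17 desert regions, with a ratio of 0.784 (95% interval 0.613 to 1.00) in mz knockouts and 0.742 (0.632 to 0.870) in the treated pool. None of the 17 was called in either series by the exact binomial test. With 2.69% and 13% of all desert regions called lower, no call among 17 tells little. Below control were 10 (58.8%) in the mz series and 12 (70.6%) in the inducible series, beside 74.1% and 82.9% of all desert regions. One of them, 101 kb from Bmp2, a bone morphogenetic protein gene, had 3.95 RPKM in mz knockouts and 7.05 RPKM in heterozygotes, and 2.38 RPKM in the treated and 4.24 RPKM in the untreated pool. Of 78 adhesion and neuronal membrane genes, 34 flanked 57 desert regions, with a ratio of 0.575 (0.488 to 0.677) in mz knockouts and 0.728 (0.666 to 0.797) in the treated pool. Of these 57, none was called lower in mz knockouts, beside 2.69% of all desert regions and 3.12% of accessible autosomal regions. In the treated pool 7 (12.3%) were called lower, near the 13% of all desert regions and the 10.2% of accessible autosomal regions. Among the 7 was a region between Nrg3 and Sh2d4b with 0.170 RPKM in the treated and 3.26 RPKM in the untreated pool. The most open region of this last list, 858 kb from the cadherin gene Cdh18 (chr15:24335758-24336218), had 5.02 RPKM in mz knockouts and 10.6 RPKM in heterozygotes, and 6.13 RPKM in the treated and 6.20 RPKM in the untreated pool. Next came a region 534 kb from Tenm3, a teneurin adhesion gene (chr8:50057031-50057365), with 4.66 RPKM in mz knockouts and 12.3 RPKM in heterozygotes, and 5.45 RPKM in the treated and 5.06 RPKM in the untreated pool. In mz knockouts the interval of the signalling list lay above that of all desert regions (0.538 to 0.600), on 17 regions, and the difference itself was not tested.

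Lists of early embryo genes came last. None of 25 pluripotency and inner cell mass genes flanked such a desert, a count that has no share over all genes beside it. Of 18 trophectoderm genes 3 did (Fgfr2, Tfap2a and Tfap2c), with 3 regions, and of the primitive endoderm list Fgfr2 did, a fibroblast growth factor receptor gene. The region 120 kb from Fgfr2 had 1.79 RPKM in mz knockouts and 2.35 RPKM in heterozygotes, and 0.681 RPKM in the treated and 1.31 RPKM in the untreated pool. Of the genes of the 2-cell stage, Zscan4f flanked 1 region (chr7:11567376-11567549), with 2.15 RPKM in mz knockouts and 5.29 RPKM in heterozygotes, and 2.21 RPKM in the treated and 1.14 RPKM in the untreated pool.

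One desert region lay next to Nr5a2 itself, 107 kb from it and 105 kb from Zfp281, a zinc finger gene (chr1:136735235-136735866). It had 4.66 RPKM in mz knockouts and 2.35 RPKM in heterozygotes, and 1.70 RPKM in the treated and 4.08 RPKM in the untreated pool, and it was called in neither series.

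The regions nearest to the 100 kb limit are given as a description. Just inside, at 101 kb, the region near Serpine2 had 2.15 RPKM in mz knockouts and 2.35 RPKM in heterozygotes, and 3.74 RPKM in the treated and 4.41 RPKM in the untreated pool, and the other was the region near Bmp2 given above. Just outside, the region 99.8 kb from Gbe1 had 1.79 RPKM in mz knockouts and 5.87 RPKM in heterozygotes, and 0.340 RPKM in the treated and 3.92 RPKM in the untreated pool. That 99.4 kb from Slc39a10 had 1.79 RPKM in mz knockouts and 5.29 RPKM in heterozygotes, and 0.851 RPKM in the treated and 1.31 RPKM in the untreated pool.

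By the authors' deposited table, which classes a region by the mean of its ratios in both series, 214 desert regions (52.3%) lost accessibility, 156 (38.1%) kept it and 39 (9.54%) gained it. Among all bound regions, 41.5% were classed as losing and 16.9% as gaining, and over accessible autosomal regions 45.8% and 7.53%. The class of gain rested on few reads in deserts. Of its 39 regions, 20 had no read in heterozygotes and 33 had at most 2, and 20 of the 39 had less signal in the treated than in the untreated pool. Such counts were not made for the class of loss or for accessible regions elsewhere. The class of loss also held regions with few reads or unlike series. The region between Nucb2 and Xylt1 had 0 reads in both mz columns, and that between Trib1 and 4933412E24Rik had a ratio of 1.04 in the treated pool.

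Region by region, the log2 ratios of the mz and inducible series had a Pearson correlation of 0.224 and a Spearman correlation of 0.190 across the 409 desert regions. Across accessible regions elsewhere these were 0.257 and 0.247. The regions share libraries and low read numbers, so these are descriptions.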

How the data were processed

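ATAC-seq libraries of 23 samples (13 mz knockout embryos, 8 heterozygous embryos, 1 tamoxifen-treated and 1 untreated pool) were grouped by their titles. The mm10 build, cutadapt, Bowtie2 and MACS2 are named per the submitters' processing notes. Merging of embryos, shifting of insertions and treatment of duplicates were not given in the sources used here. The deposited table holds RPKM, which the authors computed as 1 merged value per group and region, CUT&RUN RPKM, a ratio per series, and summit positions, per the file headers. The deposited mz ratios equalled (knockout + 0.01)/(control + 0.01) within 4e-08.

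RPKM values were whole multiples of 1 step per column within 0.0001 for 100% of values, and reads were recovered from them. Reads per region were compared by 2-sided exact binomial tests with Benjamini-Hochberg adjustment. Summed-RPKM ratios carry 95% Clopper-Pearson intervals, intervals of a ratio between ratios are normal approximations on the log scale from read totals, and log2 ratios used a pseudocount of 1. The planned tests over embryos could not be run, since the columns hold merged groups, and the motif search over members needs a genome. The test was checked on simulated data. Python 3.11.15, scipy 1.17.1, numpy 2.4.6 and pandas 2.3.3 were used. Total reads in the desert regions were 2535 in mz knockouts, 2726 in heterozygotes, 5392 in the treated and 8691 in the untreated pool.

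The members and the 7 gene lists were chosen with earlier results of these data known. Named regions were the 8 most open in the controls, up to 10 lower per series by adjusted p, all called in both series or higher, the 5 farthest from genes, the 5 largest runs, the 2 most open per gene list, the 3 most strongly bound, and the 2 on each side of the limit. The called regions of the gene lists and the regions beside Nr5a2 and at promoter windows were chosen after their values were seen. Alternatives were another distance limit, gene set, distance measure, filter, scaling and pseudocount. Left out were sex chromosomes, and 1 named region is not reported here.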

Additional observations from a re-analysis of the deposited data

Results flagged for a closer look

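The loss at desert regions differed between the series. The ratio of summed RPKM was 0.568 in mz knockouts and 0.647 in the treated pool, so the mz ratio was 0.878 of the inducible one (95% counting interval 0.823 to 0.936). For accessible regions not in deserts it was 0.940 of the inducible one (0.928 to 0.952). For desert regions classed as not accessible it went the other way, at 1.16 (1.01 to 1.35). Over all regions the ratios were 0.668 in mz knockouts and 0.694 in the treated pool. A comparison between series changes with the scaling of each column. Its interval covers counting error only, and the spread between embryos is unknown. The mz libraries came from single embryos and the inducible ones from cultured pools, so series, culture and way of deletion cannot be told apart.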

How the results depend on the processing

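Of 64 alternative values, 43 kept their call, interval or count within 1.5 times, 18 moved, 2 lost their call and 1 changed direction. The contrast of desert regions with accessible regions elsewhere, 0.865 in mz knockouts and 0.927 in the treated pool, became 0.993 and 1.03 when every gene counted, and 0.963 in the treated pool with a limit of 200 kb; these definitions were tried on the contrast after seeing the data and the cause was not tested. With a limit of 50 kb the summed ratio was 0.614 in mz knockouts, and with 200 kb it was 0.670 in the treated pool. When every gene of the table counted, which left 74 regions, the ratios were 0.648 and 0.717 and the median log2 ratios −0.36 and −0.38 in the mz and inducible series. With columns scaled to the median of all regions they were 0.709 and 0.825, and −0.31 and −0.21. With a mean RPKM of at least 2 the mz median was −0.70, and with a pseudocount of 2 the inducible median was −0.36. The 11 calls in mz knockouts became 1 with median scaling, 0 with summed-ratio scaling, 19 with at least 10 reads and 19 when adjusted over accessible autosomal regions. The 53 in the treated pool became 18 and 5 with these scalings. Taking 1 member a desert, or leaving out 11 members within 2 kb of another region, was chosen after seeing the data and kept every sum and median within its interval. No paired analysis was possible because the columns hold merged groups and carry no replicate numbers, and no single embryo could be left out. Depth limits the mz series most, where 275 of 409 desert regions held enough reads to be called.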
